A study of Mus musculus with 48 samples.

Results

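The genes described here encode the large families of drug-metabolizing enzymes of the mouse: cytochromes P450 of the Cyp2 and Cyp3 families, glutathione S-transferases of the alpha, mu and pi classes, UDP-glucuronosyltransferases of families 1 and 2, and cytosolic sulfotransferases of families 1 and 2. They were chosen by symbol alone, as every gene whose symbol has one of these family stems followed by a subfamily letter and a number, leaving out pseudogene names ending in -ps. The rule found 104 protein-coding genes among the 25913 in the deposited count tables: 57 Cyp, 14 Gst, 18 Ugt and 15 Sult genes.

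The study measured RNA by sequencing in tissues of female C3B6F1 hybrid mice kept on different feeding histories, and asked how the animals responded to a change of diet late in life. AL mice fed freely (ad libitum). DR mice received 60% of that amount from 12 weeks of age (dietary restriction). ALDR mice fed freely and were then restricted, and DRAL mice were restricted and then fed freely, with the switch at 24 months for the old animals. A young ALDR group had 2 months of restriction at 5 months of age. Old animals are labelled 26 months, while the protocol text gives 27 months for the end of the study; all were killed within 3 h before the feeding time of the restricted mice. The liver tables held ALDR and DRAL only, with 3 libraries each at 26 months, so no liver library stands for constant feeding or constant restriction. White adipose tissue (WAT) had AL (3 libraries), DR (3), ALDR (5) and DRAL (5) at 26 months and AL (3) and ALDR (3) at 5 months. Brown adipose tissue (BAT) had AL (3), DR (3), ALDR (5) and DRAL (3) at 26 months and AL (3) and ALDR (3) at 5 months; the titles of the BAT ALDR libraries spell that group ADRL. The WAT is labelled epididymal although the animals are female, so its depot is uncertain, and whether the tissues came from the same mice is not stated.

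These enzymes work in sequence. Cytochromes P450 sit in the endoplasmic reticulum and oxidize drugs, steroids and fatty acids with electrons passed on by P450 oxidoreductase, and the transferases then join glutathione, glucuronic acid or sulfate to the product so that it can be excreted. Hepatocytes hold most of these enzymes, and many are induced through the nuclear receptors CAR (Nr1i3) and PXR (Nr1i2), the aryl hydrocarbon receptor (Ahr) or NRF2 (Nfe2l2). Several mouse members are also known to differ between the sexes or over the day.

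Total counts ran from 14678489 to 22893099 per library in liver, from 12247161 to 22500246 in WAT and from 6075585 to 19349912 in BAT. Values below are library-scaled counts (CPM, each count relative to the library's total) after scaling by edgeR's TMM factors, and a difference is called where edgeR's quasi-likelihood test gave a Benjamini-Hochberg adjusted p under 0.05 over all genes tested in that tissue. Fold changes are log2 differences ± SE, with the first-named group minus the second. In liver the summed hepatocyte markers were 94385 to 110009 CPM in ALDR and 83933 to 98215 CPM in DRAL, which overlap, and none of the 13 markers was at 0. Of 8 epithelial markers, Krt8 and Krt18, keratins that hepatocytes also make, were lower in ALDR without overlap (-1.11 and -1.06); the other 6, among them Epcam, Krt7 and Krt19, summed to 8.28 to 12.8 CPM in ALDR and 8.53 to 11.2 CPM in DRAL, which overlap. Reads on Y-chromosome genes reached up to 1.35 CPM in 4 of the 6 liver libraries, 2 in each group, although the labels give female mice. Adipocyte markers were high in every WAT library (17387 to 35899 CPM) and every BAT library (9978 to 14256 CPM), and brown adipocyte markers summed to 3063 to 8556 CPM in BAT. In WAT, 3 libraries stood apart by their hepatocyte markers and are described with the WAT values. Since these are bulk tissues, fewer cells of a type and less RNA per cell cannot be told apart.

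In liver the levels of the members ranged from no read to means over 1000 CPM, and genes of these families were called in both directions between ALDR and DRAL. Of the 104 members 84 had enough counts to be tested; 20 were not tested, 9 of them with no read in any liver library. A mean of 1000 CPM was exceeded by 17 members, of which 9 are Ugt1a genes that share most of their reads and 8 are others; a mean of 100 CPM was exceeded by 54. Per kilobase of exon, and leaving out the Ugt1a genes because they share reads, the mean level over all liver libraries was highest for Sult2a1 (1200 CPM per kb), followed by Cyp3a25 (815), Cyp2e1 (658), Ugt2b5 (539), Cyp2a4 (496) and Cyp3a44 (494). Of the 84, 23 rose in ALDR and 16 fell, which is 46.4% of those tested, beside 23.8% of all genes tested in liver (10.9% higher and 12.9% lower). The median difference over the 84 was 0.16, over the 75 that are not Ugt1a genes 0.081, and over all genes -0.0048. The number that rose was 15 without ALDR replicate 1 or without DRAL replicate 2. Of the 23 that rose, 8 are Ugt1a genes that share most of their reads, as described below; without that cluster 15 of 75 members rose and 16 fell. The Cyp genes divided evenly, with 10 higher and 10 lower of 42 tested. Among the Gst genes 4 of 13 fell and none rose. Sult genes gave 5 higher and 1 lower of 13, and Ugt genes 8 higher and 1 lower of 16.

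**Figure D1:**
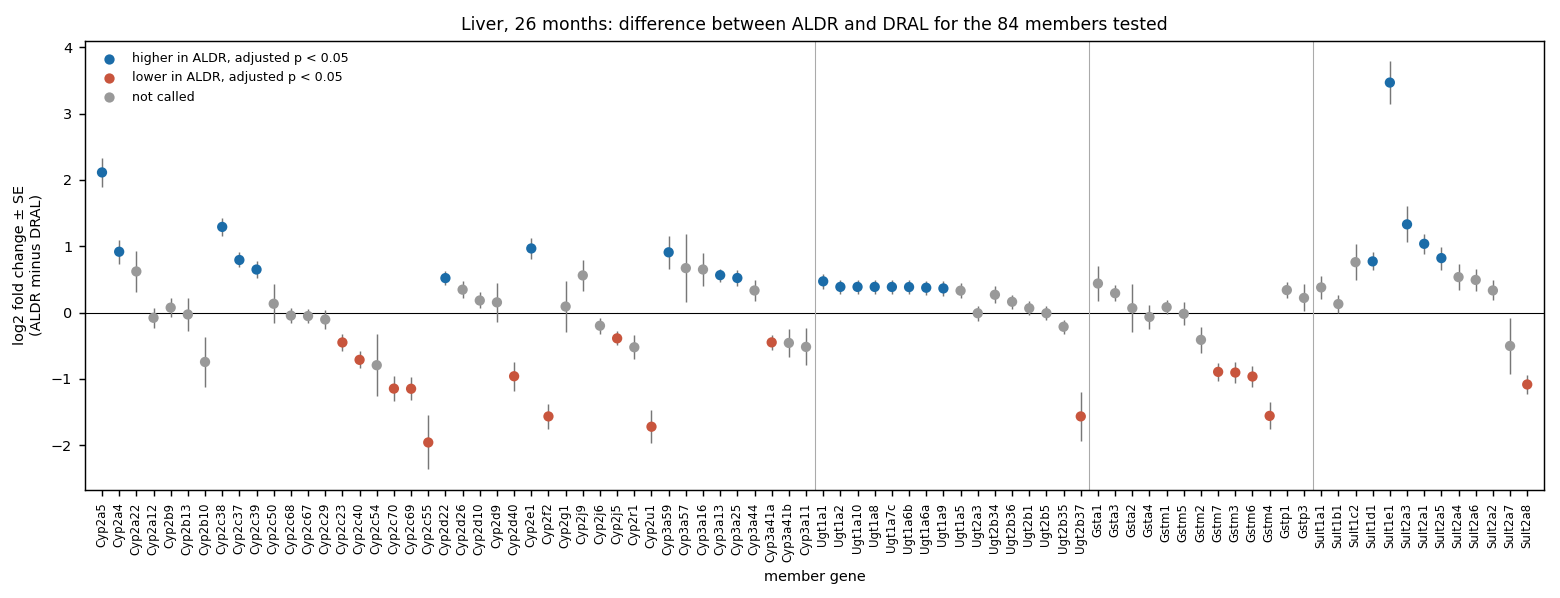
Difference between ALDR and DRAL liver at 26 months (log2, ALDR minus DRAL, vertical axis) for the tested members, grouped by family. Bars are ± SE, blue and red points passed the adjusted p threshold and grey points did not. The Gstm genes that passed lie below 0, the Sult genes that passed lie above 0 except Sult2a8, and Cyp genes that passed lie on both sides.

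The sulfotransferases join sulfate to steroids, bile acids, phenols and catecholamines. Sult1e1, the estrogen sulfotransferase (GRCm38 chromosome 5, 87575969 to 87591594, minus strand), measured 10.0, 21.4 and 17.5 CPM in the 3 ALDR livers and 1.01, 1.97 and 1.38 CPM in the 3 DRAL livers. Every ALDR library was above every DRAL library, and the difference of 3.47 ± 0.32 (adjusted p = 0.000158) was the largest rise among the members called. Sult2a1, a hydroxysteroid and bile acid sulfotransferase (chromosome 7, 13796246 to 13837409, minus strand), measured 1738, 1674 and 1525 CPM in ALDR and 629, 901 and 875 CPM in DRAL, a rise of 1.04 ± 0.15 (adjusted p = 0.00123) with no overlap. Its neighbours in the Sult2a cluster did not all follow. Sult2a3 rose by 1.33 ± 0.27 (305, 289 and 297 CPM against 60.7, 152 and 141 CPM) and Sult2a5 by 0.82 ± 0.17 (271, 201 and 259.9 CPM against 109, 135 and 171 CPM). Sult2a8 went the other way: it measured 402, 368 and 375 CPM in ALDR and 965, 656 and 806 CPM in DRAL and fell by 1.08 ± 0.14 (adjusted p = 0.000802). These 4 genes gave the Sult2a cluster 3 members higher and 1 lower of 8 tested. Sult1d1, which sulfates catecholamines, rose by 0.77 ± 0.13 (adjusted p = 0.00321), from 316, 372 and 408 CPM in DRAL to 659, 674 and 538 CPM in ALDR. Sult1a1, the phenol sulfotransferase, had 855, 885 and 682 CPM in ALDR and 459.9, 656 and 745 CPM in DRAL, which overlap (0.38 ± 0.18, adjusted p = 0.15). Added over the family, Sult RNA was 4288 to 4912 CPM in ALDR and 2953 to 3720.4 CPM in DRAL, without overlap.

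Cyp2a5 had the largest rise of the P450 genes called. Cyp2a5, the mouse coumarin 7-hydroxylase (chromosome 7, 26835305 to 26843548, plus strand), measured 1717, 1709 and 1427 CPM in ALDR and 239, 433 and 448 CPM in DRAL, a difference of 2.11 ± 0.22 (adjusted p = 0.000265). The lowest ALDR library was above 3 times the highest DRAL library. Cyp2a4, its close copy and a steroid 15-alpha-hydroxylase, measured 1246, 1119 and 1018 CPM in ALDR and 424, 665 and 701 CPM in DRAL, a smaller rise of 0.92 ± 0.18 (adjusted p = 0.00586). The exons of the pair share stretches of sequence: 14.4% of the 100-base windows of Cyp2a5 and 11.2% of those of Cyp2a4 also occur in another gene, so part of their reads cannot be assigned with certainty. The letters upstream of the starts are also nearly the same, and they are shown because the copies rose to unequal extents. The stretches below come from the RefSeq promoter table (GRCm38.p6), cover 195 to 46 bases before the Cyp2a4 start and 196 to 47 bases before the Cyp2a5 start, lie at chr7:26306997-26307146 and chr7:26835143-26835292 on the plus strand, and have the 3 differing bases in capitals.
Cyp2a4: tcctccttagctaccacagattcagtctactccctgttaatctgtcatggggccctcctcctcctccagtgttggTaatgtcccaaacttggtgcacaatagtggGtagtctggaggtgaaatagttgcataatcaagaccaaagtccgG
Cyp2a5: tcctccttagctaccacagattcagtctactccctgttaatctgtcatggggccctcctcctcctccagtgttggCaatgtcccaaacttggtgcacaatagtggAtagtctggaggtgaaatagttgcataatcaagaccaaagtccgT
Over these 150 bases the copies are 98% identical. Whether the differing bases bear on the difference in RNA was not tested.

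Further P450 genes rose by smaller amounts. Cyp2e1, which oxidizes ethanol and other small molecules (chromosome 7, 140763739 to 140774987, plus strand), measured 2007, 2013 and 1616 CPM in ALDR and 1138, 959 and 786 CPM in DRAL, a rise of 0.97 ± 0.15 (adjusted p = 0.00212) with no overlap. Of the Cyp2c genes, whose enzymes oxidize arachidonic acid, steroids and drugs, 3 rose and 5 fell of 13 tested. All lie on chromosome 19, and all but Cyp2c23 (44005022 to 44029208) form a cluster within 39007019 to 40187333, in which genes moved in both directions. Cyp2c38 rose by 1.29 ± 0.13 (149, 117 and 152 CPM against 50.7, 61.2 and 59.0 CPM), Cyp2c37 by 0.79 ± 0.11 (1149, 1168 and 961 CPM against 636, 621 and 635 CPM) and Cyp2c39 by 0.65 ± 0.13. In the same cluster Cyp2c69 fell by 1.15 ± 0.17 (241, 211 and 161 CPM against 362, 484 and 512 CPM), and Cyp2c70, which makes the muricholic bile acids of the mouse, also fell by 1.15 ± 0.19 (491, 411 and 406 CPM against 1273, 742 and 881 CPM). Cyp2c40 fell by 0.71 ± 0.13, and outside the cluster Cyp2c23 fell by 0.45 ± 0.13. Cyp2c40 and Cyp2c69 share 44.1% and 36.3% of their 100-base windows with other genes, so the counts of this pair are uncertain. In each Cyp2c gene whose 6 values are given here the groups did not overlap.

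Cyp3a genes encode the steroid- and drug-oxidizing enzymes that PXR induces, and they gave 3 higher and 1 lower of 9 tested. Cyp3a25 was the most abundant of them per length and measured 2082, 2021 and 1899 CPM in ALDR and 1214, 1419 and 1548 CPM in DRAL (0.52 ± 0.12, adjusted p = 0.0125). Cyp3a13 rose by 0.56 ± 0.10 and Cyp3a59 by 0.91 ± 0.25, while Cyp3a41a fell by 0.45 ± 0.12. The last value is uncertain, since 90.8% of the 100-base windows of Cyp3a41a also occur in another gene, mostly Cyp3a41b. Cyp3a11, the best-known PXR target of mouse liver, ranged widely within both groups, with 668, 1017 and 1465 CPM in ALDR and 1267, 1193 and 2047 CPM in DRAL, and was not called (-0.52 ± 0.28, adjusted p = 0.208). Cyp2b10, the best-known CAR target, was low and overlapped, with 13.2, 10.1 and 5.44 CPM in ALDR and 8.31, 15.7 and 24.0 CPM in DRAL (-0.74 ± 0.38, adjusted p = 0.182). None of the 3 Cyp2b genes tested was called in liver.

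The P450 genes that fell included several of low or middling level. Cyp2f2, known from the metabolism of naphthalene in lung airways, measured 56.9, 52.7 and 91.0 CPM in ALDR and 208, 186 and 201 CPM in DRAL, a fall of 1.57 ± 0.19 (adjusted p = 0.00052). Cyp2u1, a fatty acid hydroxylase, fell by 1.72 ± 0.25 (4.98, 3.95 and 3.24 CPM against 15.2, 15.8 and 8.77 CPM, adjusted p = 0.00134). Cyp2c55 fell by 1.96 ± 0.41 (4.51, 2.26 and 1.94 CPM against 6.25, 9.44 and 17.7 CPM, adjusted p = 0.00763). In each of these 3 genes the groups did not overlap. Cyp2j5, an abundant arachidonic acid epoxygenase, had the smallest fall among the P450 genes described here (0.39 ± 0.10, adjusted p = 0.0236, 934, 944 and 867 CPM against 1140.2, 1185 and 1268 CPM). Cyp2d40 fell by 0.96 ± 0.22, while Cyp2d22 rose by 0.52 ± 0.10. Summed Cyp RNA overlapped between the groups, at 17810.5 to 19462 CPM in ALDR and 15174 to 17905 CPM in DRAL, whereas the Cyp2a sum did not (3257 to 3921 CPM against 1286 to 2149.8 CPM).

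**Figure D2:**
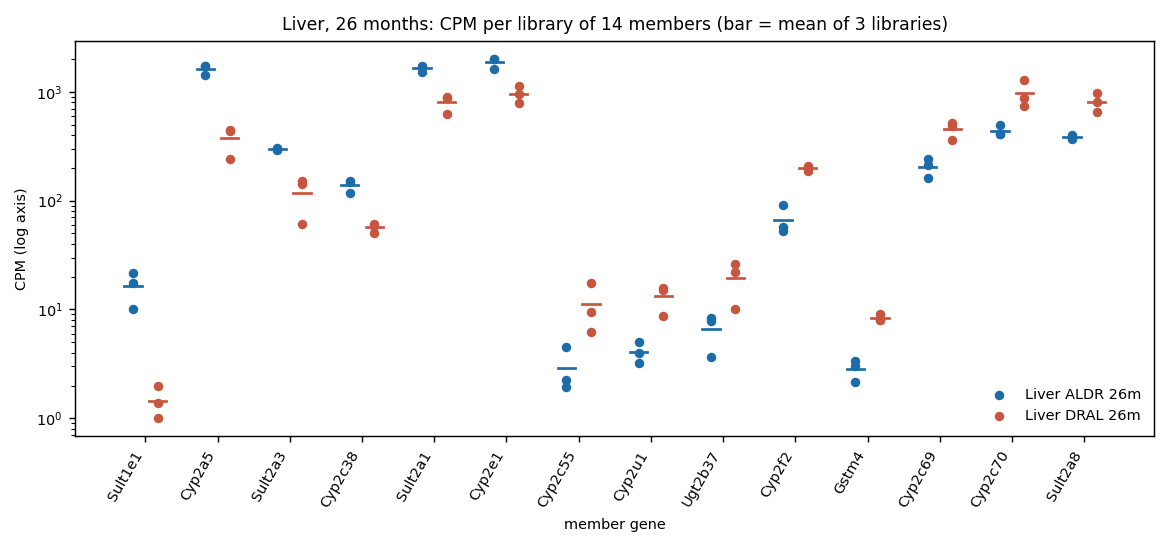
Level in each liver library (CPM, log axis) of 14 members, ALDR in blue and DRAL in red, with the mean of 3 libraries as a bar. The 6 genes on the left are higher in every ALDR library and the 8 on the right lower in every ALDR library; Sult1e1 has the widest gap.

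Glutathione S-transferases detoxify electrophiles and lipid peroxidation products. Of the 7 Gstm genes tested, 4 fell and none rose. Gstm4 measured 3.03, 3.34 and 2.15 CPM in ALDR and 7.94, 9.14 and 7.99 CPM in DRAL, a fall of 1.56 ± 0.20 (adjusted p = 0.00073). Gstm6 fell by 0.96 ± 0.16 (70.4, 61.4 and 62.0 CPM against 108, 110.1 and 160.4 CPM), Gstm3 by 0.90 ± 0.16 and Gstm7 by 0.89 ± 0.13. Gstm1, the most widely expressed of the class, had values within 85.9 to 105 CPM in all 6 libraries and was not called (0.08 ± 0.11, adjusted p = 0.635). Of the 4 Gsta genes tested none was called by edgeR. Gsta3, the most abundant, measured 2088, 2148 and 2056 CPM in ALDR and 1566, 1615 and 1956 CPM in DRAL; the groups did not overlap but the difference missed the threshold (0.29 ± 0.12, adjusted p = 0.103). Gsta4, which conjugates the lipid aldehyde 4-hydroxynonenal, was not called either (-0.07 ± 0.18, adjusted p = 0.834), and its sign turned to 0.19 without DRAL replicate 3. Gstp1 had an adjusted p of 0.0645 (0.34 ± 0.12) and shares 52.8% of its windows with Gstp2.

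The Ugt genes joining glucuronic acid to bilirubin, steroids and phenols have an unusual arrangement that decides what their counts mean. On the plus strand of chromosome 1, 9 Ugt1a genes lie in a row, each with a first exon of its own that is spliced to the same downstream exons, and the gene models share 1311 exon bases. The junction letters show this directly. They were read from the GENCODE vM21 transcripts (GRCm38); the last 40 bases of the first exon are in lower case, the first 40 of the shared second exon, which starts at chromosome 1 position 88215044, in capitals.
Ugt1a1: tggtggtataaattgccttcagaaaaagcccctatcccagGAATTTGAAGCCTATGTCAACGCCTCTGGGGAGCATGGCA
Ugt1a6a: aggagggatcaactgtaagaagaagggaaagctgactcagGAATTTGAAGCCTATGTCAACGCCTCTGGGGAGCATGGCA
Ugt1a6b: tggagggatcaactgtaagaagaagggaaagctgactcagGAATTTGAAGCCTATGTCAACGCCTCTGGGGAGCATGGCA
Ugt1a7c: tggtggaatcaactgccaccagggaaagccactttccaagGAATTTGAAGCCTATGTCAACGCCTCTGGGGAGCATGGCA
Over the first 40 bases Ugt1a6a and Ugt1a6b have 39 the same, Ugt1a1 and Ugt1a7c have 30, and Ugt1a1 and Ugt1a6a have 20, while the 40 bases in capitals are the same in all 4. Every Ugt1a gene's count is therefore mostly the same reads: the count common to all 9 was 67.8% to 73.4% of the largest Ugt1a count in the liver libraries. The 8 calls of the cluster in liver are thus close to 1 measurement.

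Counted once, the reads common to the cluster amounted to 1288, 1435 and 1236 CPM in ALDR liver and 973, 1008 and 1046 CPM in DRAL liver, a rise of 0.39 (adjusted p = 0.0281) with no overlap. The deposited count of Ugt1a6a, called at 0.38 (adjusted p = 0.0308), lost its call without any 1 library but ALDR replicate 3 (adjusted p = 0.0506 to 0.0897) and with the replicate block (0.0934), while that of Ugt1a1 kept it in all 11 alternatives. The part of a count above the common reads comes from exons that not all 9 genes share. For Ugt1a1, the enzyme that glucuronidates bilirubin, all 913 such bases are in no other Ugt1a gene, and these own reads were 26.6% to 32.2% of the count and measured 610.3, 681 and 547 CPM in ALDR and 403, 374 and 379 CPM in DRAL, a rise of 0.67 (adjusted p = 0.00294). Of the 4312 exon bases of Ugt1a6a, which acts on phenols, 1311 are common to all 9 and 2142 are in no other Ugt1a gene, so its reads above the common count are not all its own; they were not called (0.21, adjusted p = 0.199). Those of Ugt1a6b rose by 0.34 (adjusted p = 0.0295), with the same limit on whose reads they are. Own reads of Ugt1a5 were not called either (-0.38, adjusted p = 0.0679). The Ugt2b genes act on steroids and bile acids and have exons of their own; of 6 tested, Ugt2b37 fell by 1.57 ± 0.37 (8.28, 7.90 and 3.66 CPM against 10.0, 26.4 and 22.05 CPM, adjusted p = 0.0131) and the others were not called. Without DRAL replicate 2 the Ugt2b37 difference was not called. Ugt2b5, the most abundant Ugt2 gene per length, had overlapping groups at 949 to 1030.0 CPM in ALDR and 936 to 1055 CPM in DRAL (-0.01 ± 0.11, adjusted p = 0.962).

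Several members that rose carry the same short word before their start. GTTAAT followed by any base and then ATT, a sequence close to the site of the liver factor HNF1, was searched on both strands in the 250 bases before each start in the RefSeq promoter table (GRCm38.p6). It was found in 122 of 32851 promoters (0.371%) and in 8 of the 91 members with a promoter in the table (8.79%). The 8 are Sult1d1, Sult2a3, Sult2a4, Sult2a5, Sult2a6, Ugt1a1, Ugt1a9 and Ugt1a10, of which the Sult2a genes are near copies of each other. Those that rose beyond the common Ugt1a reads are shown with 10 bases on each side and the word in capitals, for Ugt1a1 as it reads on the opposite strand.
Sult1d1: ccactgatcaGTTAATAATTgactaagagt
Sult2a3: gcaagataatGTTAATGATTttttacttgc
Sult2a5: ataagagaatGTTAATGATTttttacctgt
Ugt1a1: gggcacaatcAATCATTAACtggttgcaca
They lie at chr5:87569066-87569095 (minus strand), chr7:14123080-14123109 (minus strand), chr7:13623929-13623958 (plus strand) and chr1:88211904-88211933 (plus strand). Sult2a4 and Sult2a6 had the same direction and were not called (0.54, adjusted p = 0.079, and 0.49, adjusted p = 0.0633). Another word, TTANGTAA, close to the D-box bound by the clock output factors DBP, TEF and HLF, was found in 677 of the 32851 promoters (2.06%) and in 4 of the 91 members (4.4%), namely Cyp2c38, Sult1a1, Ugt1a9 and Ugt2b1. Of these, Sult1a1 (0.38, adjusted p = 0.15) and Ugt2b1 (0.07, adjusted p = 0.712) were not called in liver, the Ugt1a9 call (0.36, adjusted p = 0.0348) rests on the common reads, and Cyp2c38 rose as given above. Its word is in capitals as read on the opposite strand.
Cyp2c38: agattagaaaTTACCTAAtgggttactc
That stretch lies at chr19:39463142-39463169 on the minus strand. A match of letters is a description of the sequence and not a binding site.

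The receptors and partners of these enzymes were taken from a list of 55 genes of the pathway, of which 53 were tested in liver; 19 rose, 7 fell and 27 were not called, with a median difference of 0.33, beside 10.9% higher and 12.9% lower and a median of -0.0048 over all genes. Por, the oxidoreductase that supplies electrons to every microsomal P450, measured 366, 492 and 357 CPM in ALDR and 82.6, 110.4 and 94.0 CPM in DRAL, a rise of 2.08 ± 0.16 (adjusted p = 7.05e-05). Alas1, the first enzyme of heme synthesis, rose by 1.25 ± 0.19 (421, 659 and 643 CPM against 298, 225 and 203 CPM). Both had no overlap between the groups. Among the receptors, Nr1i3 (CAR) measured 675, 823 and 736 CPM in ALDR and 236, 236 and 239.6 CPM in DRAL, a rise of 1.65 ± 0.11 (adjusted p = 4.64e-05), and Nr1i2 (PXR) rose by 0.65 ± 0.10 (168, 159 and 156 CPM against 96.7, 101 and 109.8 CPM). Ahr (0.14 ± 0.10, adjusted p = 0.381) and Nfe2l2 (0.36 ± 0.13, adjusted p = 0.0754) were not called. The PAR-bZIP factors Tef and Hlf rose by 1.36 ± 0.18 and 1.35 ± 0.18, while Dbp, which cycles strongly over the day, overlapped at 42.8, 41.6 and 14.8 CPM in ALDR and 11.2, 28.0 and 13.8 CPM in DRAL (0.89 ± 0.41, adjusted p = 0.142). The rises of Nr1i3 and Nr1i2 stood beside no call in Cyp2b10 or Cyp3a11, rises of Cyp2a5 and Cyp2c37, and falls of Cyp2f2 and Cyp2c70. Whether the receptor levels bear on any member was not tested.

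**Figure D3:**
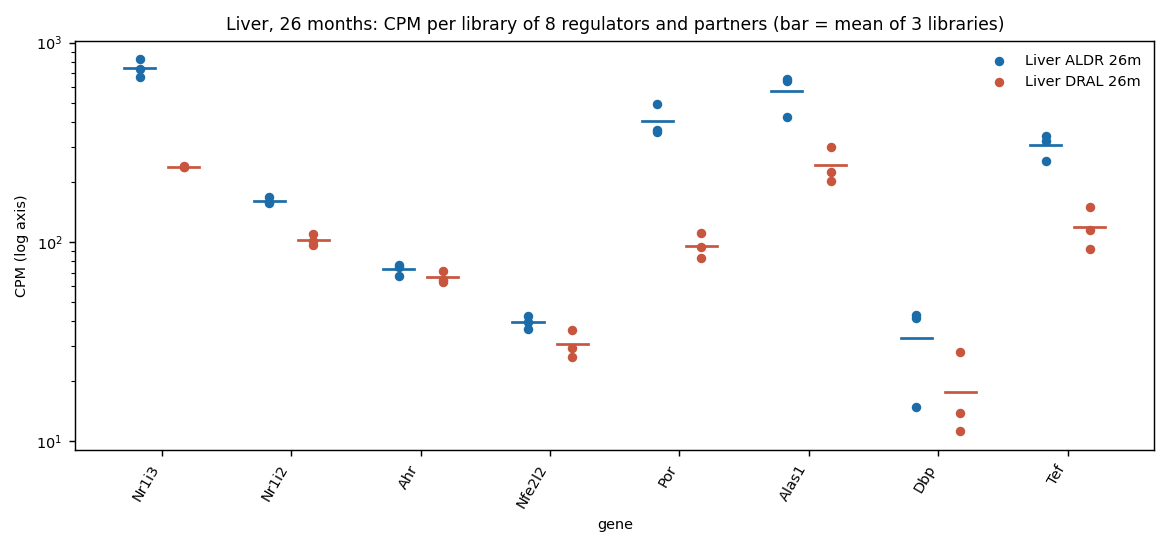
Level in each liver library (CPM, log axis) of the receptors, clock output factors and electron and heme partners named in the text, ALDR in blue and DRAL in red, with the mean of 3 libraries as a bar. Por, Nr1i3, Nr1i2, Alas1 and Tef are higher in every ALDR library, while Dbp and Ahr overlap.

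Members with known sex-biased expression were called in both directions. Of 15 tested members listed as higher in females, 4 rose, 3 fell and 8 were not called, with a median of 0.33, beside 10.9% higher and 12.9% lower of all liver genes; of 4 tested members listed as higher in males, 1 fell and 3 were not called. Markers of the zones of the liver lobule did not move together: of 6 pericentral markers 1 rose and 1 fell, and of 6 periportal markers 2 rose (Pck1 by 1.97 and Hsd17b13 by 0.88) and Hal fell by 1.08, with a median of 0.03. Pericentral markers summed to 3630 to 4750.3 CPM in ALDR and 4549 to 5938 CPM in DRAL, which overlap, and periportal markers to 6518 to 7935 CPM and 3693 to 4865 CPM, which do not overlap. Pck1, with 3725 to 4802 CPM in ALDR and 535 to 1889 CPM in DRAL, makes up that gap: the other 5 summed to 2483 to 3133 CPM and 2799 to 3304 CPM, a sum chosen after its values were seen. The part of zone markers in the member differences was not tested.

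In WAT 70 members passed the count filter and 34 did not, 4 of them with no read. Many of those 70 were present through 3 libraries. AL 26 months replicate 3, AL 5 months replicate 2 and ALDR 26 months replicate 2 had hepatocyte markers summing to 2153 to 3079 CPM, against 18.4 to 152 CPM in the other 19 WAT libraries. In 40 of the 70 members over 50% of the summed CPM of all 22 WAT libraries lay in these 3, with a median share of 97.1%, and those 40 together reached 284 to 368 CPM there against 0.227 to 21.9 CPM elsewhere. Of the 40, 2 were called. Cyp2b9 gave 5.59 ± 1.73 for ALDR against DRAL (adjusted p = 0.0423) with 17.998 CPM in ALDR replicate 2 and 0.152 to 0.622 CPM in the other ALDR libraries; Cyp2c70 gave -6.26 ± 2.01 for DR against AL (adjusted p = 0.0278). Without the 3 libraries neither was called (2.03, adjusted p = 0.108, and -1.88, adjusted p = 0.293).

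**Figure D4:**
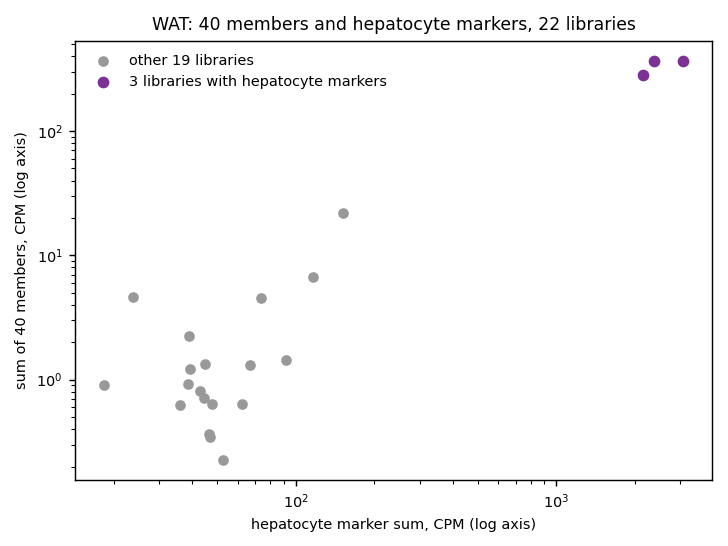
Summed CPM of the 40 members concentrated in 3 WAT libraries against the summed CPM of hepatocyte markers (both axes log), 1 point per WAT library. The 3 libraries stand at 2153 to 3079 CPM of markers and 284 to 368 CPM of members, apart from the other 19.

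The remaining 30 members had at most 27.7% of their WAT CPM in those 3 libraries, where an even share would be 13.6%. Per kilobase the most abundant WAT members were Cyp2e1 (488 CPM per kb), Sult1a1 (175), Gstm1 (117), Gstm2 (89.3) and Gsta4 (53.2). Constant restriction against free feeding at 26 months gave 6 members higher and 1 lower (Cyp2c70, above) of 70 tested, beside 26% of all WAT genes (13.5% higher and 12.5% lower); without the 3 libraries it was 5 of 34, all higher. The count of 7 was 4 without AL replicate 3 or without DR replicate 2. The young ALDR mice against young AL gave 9 higher and 1 lower, beside 29.2% of all genes (14.8% and 14.4%). Without the 3 libraries it was 6 higher and 1 lower of 34. These percentages are from the fit of all WAT libraries. Shares over all genes in the fit without the 3 are not given here, so the counts of 34 have no background beside them. Since 40 of the 70 members were tested mainly through those libraries, the count over 70 is no measure of the members' share: all 10 calls at 5 months and 6 of the 7 in DR against AL lie among the 21 members that are neither Ugt1a genes nor concentrated there. Cyp2e1, Sult1a1, Gsta3, Cyp2d22 and Cyp2u1 were called higher in both comparisons, which share no library; the Cyp2u1 call at 5 months was lost in 9 of 15 alternatives, among them leaving out AL replicate 1 or 2 or ALDR replicate 1 or 3 (adjusted p = 0.0822 to 0.17).

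Cyp2e1, the most abundant member in WAT per length, was highest under restriction that began early. It measured 252, 183 and 390.1 CPM in old AL, 1952, 2808 and 2303 CPM in DR, 915, 728, 599, 241 and 919 CPM in old ALDR and 534, 385, 424, 763 and 389 CPM in DRAL. At 5 months it measured 334, 271 and 294 CPM in AL and 2731, 3797 and 1969 CPM in ALDR. Every DR and every young ALDR library was above every other WAT library, while old ALDR lay between AL and DR with 1 library, replicate 4, inside the AL range. DR against AL gave 3.10 ± 0.41 (adjusted p = 4.2e-05) and young ALDR against young AL 3.24 ± 0.42 (adjusted p = 2.93e-05). Old ALDR against AL gave 1.31 ± 0.36 (adjusted p = 0.0458), a call lost in 13 of 17 alternatives. Among them were 7 of the fits that left out 1 library and the fit without the 3 hepatocyte-marker libraries (1.61, adjusted p = 0.084). Against DR, which these comparisons share, ALDR was lower by -1.79 ± 0.34 (adjusted p = 0.00225) and DRAL by -2.24 ± 0.34 (adjusted p = 0.000135). ALDR and DRAL were not separated (0.45 ± 0.30, adjusted p = 0.33). Macrophage markers were lower in DR, with sums of 565 to 833 CPM against 2023 to 3399.7 CPM in old AL, and their part in the DR differences was not tested. Muscle markers were high in DR, with sums of 379, 5346 and 14942 CPM against 20.7 to 50.6 CPM in DRAL, and with them as a covariate the DR difference from AL was 2.80 (adjusted p = 0.00118), while ALDR against DR (-1.54, adjusted p = 0.0505) and DRAL against DR (-1.80, adjusted p = 0.0786) were not called.

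Restriction against free feeding thus gave 3.24 for Cyp2e1 in young ALDR mice, after 2 months, and 1.31 in old ALDR mice, whose time on restriction depends on which age at death holds. The difference between these responses was -1.93 ± 0.51 and missed the threshold in edgeR (adjusted p = 0.0621). Over all members edgeR called no such difference between old and young in WAT, beside 1.34% of all genes called. At an unadjusted p under 0.05 there were 10 of 70 members. Of these 10, 8 are among the 21 members neither in Ugt1a nor concentrated in the 3 hepatocyte-marker libraries. DESeq2 called 3 members in WAT (Cyp2e1, Gsta3 and Gstm5). In BAT edgeR also called none, beside 0.0144% of all genes called, with 4 of 30 members at an unadjusted p under 0.05. DESeq2 called 2 there (Gstm1 and Cyp2d22). Shares over all genes at the unadjusted level or with DESeq2 are not given here, so those member counts have no background beside them.

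Among the conjugating enzymes of WAT, Sult1a1 and Gsta3 rose in DR and in young ALDR, by less than Cyp2e1. Sult1a1 measured 169, 209.6 and 169 CPM in old AL, 329, 355 and 294 CPM in DR, 322, 353, 361, 208 and 277 CPM in ALDR and 218, 199, 168, 245 and 233 CPM in DRAL. DR was above AL in every library (0.84 ± 0.19, adjusted p = 0.00373), as was young ALDR over young AL (409, 429.9 and 373 CPM against 175, 119 and 193 CPM, 1.32 ± 0.20, adjusted p = 9.86e-05). ALDR against AL gave 0.74 ± 0.18 (adjusted p = 0.0242) and ALDR against DRAL 0.52 ± 0.15 (adjusted p = 0.0314); neither was called without the 3 hepatocyte-marker libraries (0.63, adjusted p = 0.104, and 0.44, adjusted p = 0.0589), and they were lost in 5 of 17 and 11 of 19 alternatives. Gsta3 measured 73.2, 72.3 and 84.7 CPM in AL and 156, 154 and 149.98 CPM in DR (1.00 ± 0.22, adjusted p = 0.00296), with 151, 153 and 159 CPM in young ALDR against 56.5, 68.4 and 68.1 CPM in young AL (1.26 ± 0.22, adjusted p = 0.000468). In old ALDR it had 97.0, 113, 121, 61.7 and 85.4 CPM, below DR in every library (-0.68 ± 0.19, adjusted p = 0.0277), and was not called against AL (0.32, adjusted p = 0.413). The Gsta3 call against DR was lost in 8 of 17 alternatives, among them leaving out ALDR replicate 4 or 5 or any DR library (adjusted p = 0.0526 to 0.0795) and the muscle covariate (0.158). Gstm5 rose in young ALDR by 0.95 ± 0.20 (55.6, 60.4 and 57.3 CPM against 31.3, 21.3 and 37.2 CPM).

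Among the other P450 genes of WAT, Cyp2d22 measured 23.6, 28.9 and 20.1 CPM in old AL, 35.1, 43.6 and 33.5 CPM in DR and 24.3, 18.2, 14.5, 17.9 and 19.7 CPM in DRAL. DRAL was below DR in every library (-0.98 ± 0.19, adjusted p = 0.000822), and DR was above AL (0.63 ± 0.21, adjusted p = 0.0346; without the 3 libraries 0.51, adjusted p = 0.0899). Cyp2u1 rose in DR by 0.65 ± 0.17 (16.2, 20.3 and 18.5 CPM against 11.2, 11.02 and 12.8 CPM, adjusted p = 0.00952), whereas it fell in ALDR liver and, as given below, in DR BAT; the differences between tissues were not tested. Cyp2r1, the vitamin D 25-hydroxylase, was the member that fell in young ALDR, from 2.90, 2.36 and 2.32 CPM to 1.36, 1.26 and 0.736 CPM (-1.17 ± 0.29, adjusted p = 0.00511). Of the transferases, Gstp1 rose in DR against AL by 0.47 (78.3, 66.4 and 72.4 CPM against 51.1, 51.1 and 54.7 CPM, adjusted p = 0.0397), a call lost without any 1 of the 6 libraries (0.0512 to 0.107). Gsta4, Gstm1 and Cyp2s1 were called in no WAT comparison. The Gsta4 groups did not overlap at 5 months, with 98.7, 85.7 and 94.9 CPM in ALDR and 43.5, 34.0 and 70.2 CPM in AL, but the difference missed the threshold (0.92 ± 0.37, adjusted p = 0.0684).

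After the late switches, WAT members differed in few genes beyond Ugt1a. ALDR against DRAL called 3 higher and 10 lower of 70, beside 12.3% of all genes (6.37% higher and 5.96% lower); 9 of the 10 are Ugt1a genes. Besides Sult1a1 and Cyp2b9, Cyp2d22 was higher in ALDR by 0.60 ± 0.16 (adjusted p = 0.0248; without the 3 libraries 0.48, adjusted p = 0.0589), a call lost in 9 of 19 alternatives. Gstm2 was lower, with 103, 114, 108, 151 and 102 CPM in ALDR and 134, 159, 173, 142 and 156 CPM in DRAL (-0.40 ± 0.10, adjusted p = 0.0152), groups that overlap through ALDR replicate 4. DRAL against DR called 10 higher (Gstm7 and 9 Ugt1a genes) and 5 lower, beside 30.5% of all genes (14.6% and 15.9%); with muscle markers as a covariate no member was called. ALDR against AL called 2 higher (Cyp2e1 and Sult1a1), beside 4.36% of all genes (2.66% higher and 1.7% lower), and ALDR against DR 2 lower (Cyp2e1 and Gsta3), beside 12.8% (5.81% and 6.96%).

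The common reads of the Ugt1a cluster differed between groups in both fat depots, in opposite directions for DRAL against DR; the difference between the depots was not tested. In WAT they measured 132, 141, 129, 145 and 125 CPM in DRAL, above every ALDR library (82.1, 104, 95.3, 109 and 74.3 CPM) and every DR library (95.8, 81.5 and 85.0 CPM). ALDR against DRAL gave -0.53 (adjusted p = 0.00372) and DRAL against DR 0.62 (adjusted p = 0.00098), while DR against AL was not called (-0.33, adjusted p = 0.0759). In BAT they measured 14.2, 16.6 and 14.6 CPM in DR, above AL (5.68, 7.61 and 7.65 CPM), DRAL (6.58, 7.81 and 5.46 CPM) and old ALDR (6.82, 8.998, 8.68, 8.98 and 6.81 CPM). DR against AL gave 1.11 (adjusted p = 0.00107), DRAL against DR -1.19 (adjusted p = 0.000819) and ALDR against DR -0.90 (adjusted p = 0.00326); the 3 share the DR libraries. The deposited count of Ugt1a2, taken alone, gave 1.10 ± 0.17 in BAT for DR against AL (adjusted p = 0.00103), next to the value of the common reads. Reads of Ugt1a6a above the common count in WAT, 15.8% to 24.4% of its count, also fell in ALDR against DRAL (-0.44, adjusted p = 0.014). The common reads were 75.6% to 83.4% of the largest Ugt1a count in WAT and 79.8% to 88.2% in BAT.

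**Figure D5:**
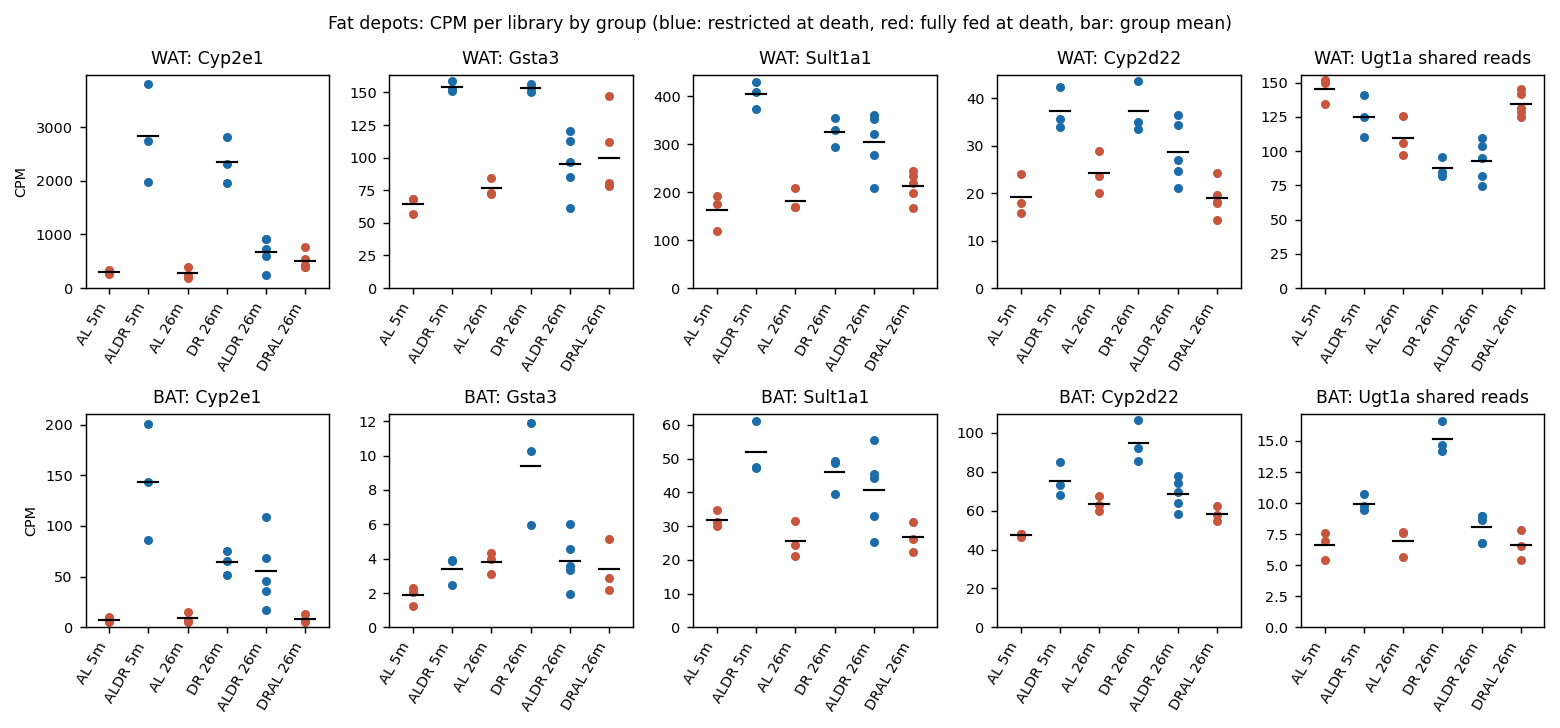
Level of selected members in each WAT library (top row) and BAT library (bottom row) by feeding group and age (CPM, linear axes that start at 0; blue, restricted at death; red, fed freely at death; bar, group mean). Cyp2e1 is highest in DR and young ALDR in WAT and highest in young ALDR in BAT, and the common Ugt1a reads are highest in DR in BAT.

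In BAT 30 members passed the count filter, and 74 did not, 35 of them with no read. Gstm1 led per kilobase (90.4 CPM per kb), then Gsta4 (65.6), with Cyp2e1 at 22.6. Constant restriction against free feeding called 17 members higher and 1 lower of the 30, beside 11.5% of all BAT genes (5.99% higher and 5.52% lower); outside Ugt1a it was 8 higher and 1 lower of 21. Young ALDR against AL called 16 higher and none lower, beside 14.4% of all genes (7.2% and 7.22%); 9 of the 16 are Ugt1a genes. That count fell to 3 without young AL replicate 2 or young ALDR replicate 1, to 4 without young ALDR replicate 3, to 5 without young AL replicate 3 and to 9 without young ALDR replicate 2. DRAL against DR called 16 lower and none higher, beside 8.4% of all genes (3.47% and 4.93%). Outside Ugt1a it was 7 lower and none higher of 21.

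Among the BAT members outside Ugt1a, Cyp2d22 had the smallest adjusted p in DR against AL. It measured 62.9, 59.7 and 67.4 CPM in old AL, 107, 85.7 and 92.2 CPM in DR, 63.7, 77.9, 69.5, 74.0 and 58.2 CPM in ALDR and 54.7, 57.7 and 62.4 CPM in DRAL. Every DR library was above every other old library: DR against AL gave 0.58 ± 0.11 (adjusted p = 0.00324), DRAL against DR -0.70 ± 0.11 (adjusted p = 0.00119) and ALDR against DR -0.47 ± 0.10 (adjusted p = 0.012). Young ALDR rose by 0.66 ± 0.11 (84.9, 73.0 and 67.9 CPM against 48.0, 48.0 and 46.4 CPM). Gstm1 rose in DR by 0.35 (176, 169 and 151 CPM against 136, 112 and 140.4 CPM, adjusted p = 0.0393) and in young ALDR by 0.58 ± 0.11. Sult1a1 rose in DR by 0.84 ± 0.22 (49.4, 39.4 and 48.8 CPM against 21.0, 31.4 and 24.4 CPM) and Gsta3 by 1.29 ± 0.38 (10.3, 11.9 and 5.98 CPM against 3.97, 3.11 and 4.35 CPM). Cyp2u1 was the member that fell, from 23.8, 17.1 and 21.9 CPM in AL to 13.98, 11.9 and 14.5 CPM in DR (-0.63 ± 0.19, adjusted p = 0.0386). Several of these DR against AL calls did not hold when 1 library was left out: that of Cyp2u1 was lost without AL replicate 1 or 3 or any DR library (adjusted p = 0.0747 to 0.147), that of Gsta3 without any AL library or DR replicate 1 or 2 (0.084 to 0.125), that of Gstm1 without the same 5 libraries (0.0571 to 0.152), and that of Sult1a1 without AL or DR replicate 1 or 3 (0.0693 to 0.0979). With marker covariates, hepatocyte and epithelial or muscle, Cyp2u1, Gsta3 and Sult1a1 were not called either (highest adjusted p = 0.177, 0.177 and 0.165), and Gstm1 was not called with the muscle covariate, without the filter or in a fit of the compared groups alone (0.0557 to 0.0875).

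Cyp2e1 in BAT was low in freely fed mice and spread widely in restricted ones. It measured 5.14, 15.1 and 7.35 CPM in old AL, 52.1, 65.0 and 75.7 CPM in DR, 16.9, 36.0, 45.8, 68.4 and 109 CPM in ALDR and 4.89, 13.5 and 5.93 CPM in DRAL, with 201, 86.5 and 144 CPM in young ALDR and 5.72, 10.1 and 6.55 CPM in young AL. All restricted libraries at both ages were above all libraries of freely fed mice, DRAL included. DR against AL gave 2.79 ± 0.57 (adjusted p = 0.00511), ALDR against AL 2.57 ± 0.53 (adjusted p = 0.0225), ALDR against DRAL 2.76 ± 0.54 (adjusted p = 0.0148) and young ALDR against young AL 4.26 ± 0.60 (adjusted p = 0.000346). Markers of other epithelia differed between libraries as well. They summed to 43.1 to 96.2 CPM in young ALDR and 7.15 to 14.6 CPM in young AL, without overlap, and to 1.59 to 10.9 CPM in old AL, 9.96 to 17.5 CPM in DR, 7.35 to 388 CPM in old ALDR and 2.36 to 41.5 CPM in DRAL, which overlap in part. With hepatocyte and epithelial markers as covariates the young difference was 3.53 (adjusted p = 0.00228), while DR against AL (1.86, adjusted p = 0.0647), ALDR against AL (0.99, adjusted p = 0.603) and ALDR against DRAL (2.00, adjusted p = 0.125) were not called. The ALDR against AL call was also lost without AL replicate 1 or 3 or ALDR replicate 4 (adjusted p = 0.0524 to 0.147), and the ALDR against DRAL call without DRAL replicate 1 or 3 (0.0579 to 0.0933).

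ALDR against DRAL called 2 members in BAT, both higher (Cyp2e1 and Cyp2f2), beside 2.02% of all genes (1.16% and 0.852%). Cyp2f2 measured 0.975, 1.31, 2.60, 2.73 and 3.73 CPM in ALDR and 0.337, 0.358 and 0.405 CPM in DRAL (2.60 ± 0.47, adjusted p = 0.0103), opposite in direction to liver, a difference that was not tested; with the marker covariates it gave 2.04 (adjusted p = 0.104). The Cyp2f2 call was lost in 5 of 16 alternatives, among them leaving out DRAL replicate 1 or 2 (adjusted p = 0.0578 to 0.0738). The count of 2 fell to 0 without DRAL replicate 1 and rose to 4 without ALDR replicate 1. ALDR against DR called 2 higher (Cyp2f2 and Cyp2b10) and 13 lower, 9 of them Ugt1a genes, beside 5.21% of all genes (1.94% and 3.27%); the total of 15 fell to 9 without DR replicate 1. Cyp2b10 ranged from 0.2999 to 44.6 CPM within ALDR, with 16.4 CPM as the median, against 1.36, 0.326 and 2.20 CPM in DR (3.73 ± 0.94, adjusted p = 0.0302; with the marker covariates 2.58, adjusted p = 0.109). The Cyp2b10 and Cyp2f2 calls against DR were each lost without ALDR replicate 4 or any DR library (adjusted p = 0.0512 to 0.15 and 0.0565 to 0.15). ALDR against AL called Cyp2e1 alone, as higher, beside 1.3% of all genes (0.578% and 0.722%).

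Por rose with restriction in both depots, as it did in ALDR liver. In WAT it measured 124, 131 and 147 CPM in old AL, 360.5, 428 and 333 CPM in DR, 275, 318, 279, 201 and 312 CPM in ALDR and 177, 149, 164, 118 and 169.6 CPM in DRAL. Every ALDR library was above every AL and DRAL library: ALDR against AL gave 1.05 ± 0.18 (adjusted p = 0.00381) and ALDR against DRAL 0.83 ± 0.15 (adjusted p = 0.00233), while DR against AL gave 1.48 ± 0.19 (adjusted p = 3.6e-05). In BAT DR against AL gave 0.63 ± 0.11 (adjusted p = 0.00235) and ALDR against AL 0.43 ± 0.10 (adjusted p = 0.0433). Of the 53 pathway partners tested in WAT, 15 rose and none fell in DR against AL, beside 13.5% and 12.5% of all genes, and 16 rose and 2 fell in ALDR against DRAL, beside 6.37% and 5.96% of all genes. Of 44 tested in BAT, 15 rose and 2 fell in DR against AL, beside 5.99% and 5.52%. Alas1 went against its liver direction in BAT, with 225, 149.6, 153, 168 and 194 CPM in ALDR and 396, 470.0 and 404 CPM in DRAL (-1.25 ± 0.16, adjusted p = 0.00125).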

How the data were processed

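RNA of 48 libraries in 14 groups was analysed. The deposited tables hold counts of reads per gene made by the authors. The submitters' processing notes name Trim Galore 0.3.7, TopHat2 2.0.14 and GRCm38; the counting tool is not given in the sources used here. Per the labels' protocols, liver and WAT libraries were rRNA-depleted, stranded and paired-end, while BAT libraries were polyA-selected and single-end, so levels were not compared between tissues. The labels speak of biological replicates.

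Each tissue was fitted on its whole table with edgeR 4.0.16 in R 4.3.3 (filterByExpr, TMM, quasi-likelihood F test, 1 coefficient per group, all groups of a tissue sharing the spread), with Benjamini-Hochberg adjustment over all genes tested (12761 in liver, 15828 in WAT and 13845 in BAT) and a threshold of 0.05. SE is the fold change divided by the square root of F. Alternatives were DESeq2 1.42.0, RLE scaling, no filter on low counts, the replicate number as a block, each library left out in turn, marker levels or Y-chromosome reads as covariates, and fits of the compared groups alone. The Ugt1a cluster was also counted as 1 shared count (the smallest of the 9 counts) plus the reads of each gene above it, a choice made after seeing the data. Levels per kilobase used GENCODE vM21 exon lengths, and shared sequence was the percent of 100-base exon windows found in another gene.

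The labels do not say whether replicate numbers mark pairs of samples. Correlations of same-numbered deviations ran from -0.42 to 0.23 in liver, and no comparison had every pair above 0.1. In BAT ALDR against DR they ran from 0.0958 to 0.36. With 3 to 5 pairs per comparison, this check cannot exclude pairing. No 2 libraries agreed within sampling noise. Depth limits low genes: 3 counts are the floor per library, and such floors cover counting error only. The fit was tested on simulated data.

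The members and gene lists were chosen with earlier results of these data known. Named in liver are up to 10 members higher and 10 lower with the smallest adjusted p, at least 1 in log2 difference and no overlap, and the 3 most abundant per family; in fat, 3 higher and 3 lower per comparison and a fixed list of 13; 8 partners were fixed. Other genes were named after their values were seen. Hepatocyte-marker WAT libraries were set apart at 1000 CPM, after seeing the data.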

Additional observations from a re-analysis of the deposited data

Results flagged for a closer look

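Some libraries lay far from the others of their group; by chance about 1 in 20 groups would hold one, and 4 were found in 36 checks. In WAT, ALDR replicate 1 (26 months) had 10.7 CPM of Cyp2f2 against 1.58 to 3.02 CPM in the other 4 libraries, and 170.5 CPM of Gsta4 against 51.1 to 66.9 CPM; the epithelial markers of that library summed to 330.3 CPM, and their part in these values was not tested. WAT DRAL replicate 5 had 1.97 CPM of Cyp2r1, below the 2.37 to 2.45 CPM of the others. BAT ALDR replicate 5 (26 months) had 27.7 CPM of Gstp1 against 42.0 to 45.2 CPM, and its epithelial markers summed to 388 CPM.

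In other results the groups did not overlap in either of 2 tissues and the direction was opposite; these differences between tissues were not tested. Cyp2u1 differed by 0.65 in WAT and -0.63 in BAT for DR against AL, by -0.55 and 0.46 for DRAL against DR, and by -0.32 and 0.59 for ALDR against DR. Of these 6 values, 3 did not pass the threshold: BAT DRAL against DR (adjusted p = 0.143) and ALDR against DR in WAT (0.18) and BAT (0.0553). The common Ugt1a reads differed by 0.39 in liver and -0.53 in WAT for ALDR against DRAL, by -0.33 in WAT and 1.11 in BAT for DR against AL, and by 0.62 in WAT and -1.19 in BAT for DRAL against DR. Of these, WAT DR against AL did not pass (adjusted p = 0.0759). Cyp2f2 differed by -1.57 in liver and 2.60 in BAT for ALDR against DRAL. Comparisons that share the DR libraries are not independent.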

How the results depend on the processing

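Of 85 named differences called, 44 were called in the same direction under every alternative run; in liver 15 of 17 were. The liver count of 39 was 47 with DESeq2, 42 with Y-chromosome reads as a covariate and 28 to 37 with 1 library left out; the count of members higher was 15 to 24 and lower 13 to 18, with 15 higher without ALDR replicate 1 or DRAL replicate 2. Gsta4 in liver ran from -0.24 to 0.19 with 1 library left out, the latter without DRAL replicate 3 (adjusted p = 0.369). The causes of changes below were not tested, except that counting Ugt1a once removes repeated genes.

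With the Ugt1a cluster as 1 shared count plus the reads of each gene above it, members called in WAT were 7 for ALDR against DRAL and 8 for DRAL against DR, and in BAT 11 for DR against AL, 7 for ALDR against DR, 8 for DRAL against DR and 9 at 5 months. With a muscle marker covariate they were 8, 1, 0 and 0 in WAT for ALDR against DRAL, AL and DR and for DRAL against DR, and 1, 0 and 10 in BAT for ALDR against DRAL and AL and at 5 months. With hepatocyte and epithelial covariates they were 0, 0 and 7 in the same 3 BAT comparisons, and the WAT test of restriction by age called 2. Fitting the compared groups alone gave 0 and 1 in WAT (ALDR against AL and DR) and 0, 0 and 7 in BAT (ALDR against DRAL, AL and DR). For WAT ALDR against AL, no filter gave 1, and leaving out the 3 hepatocyte-marker libraries 0. DESeq2 called 2 for BAT ALDR against AL, and 3 in WAT and 2 in BAT for restriction by age.

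Whether the replicate numbers mark pairs of samples is not known. With the replicate block 29 liver members were called (16 higher and 13 lower); counts of 2 fell to 1 in WAT ALDR against AL, WAT ALDR against DR and BAT ALDR against DRAL, and that of 1 in BAT ALDR against AL to 0.

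Leaving out 1 library at a time gave, in WAT, 10 to 17 for ALDR against DRAL, 4 to 8 for DR against AL (4 without AL replicate 3 or DR replicate 2), 0 to 4 for ALDR against AL, 1 to 2 for ALDR against DR, 11 to 15 for DRAL against DR, 7 to 11 at 5 months and 0 to 1 for restriction by age. In BAT it gave 0 to 4 for ALDR against DRAL, 12 to 16 for DR against AL, 0 to 3 for ALDR against AL, 9 to 16 for ALDR against DR (9 without DR replicate 1), 12 to 14 for DRAL against DR, 3 to 11 at 5 months and 0 for restriction by age. Depth limits the low members: 3 counts are the floor of a library, which covers counting error only, and BAT libraries were the shallowest.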
